A study of Homo sapiens with 19 samples.

Results

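The mitochondrial ribosomal protein genes are the nuclear genes for the proteins of the mitochondrial ribosome, and they were taken here as every gene whose symbol is MRPL or MRPS followed by digits and an optional A, B or C. Symbols alone decided membership, and whether the protein of each gene sits in that ribosome was not checked. The rule found 78 genes among 34825 gene rows, 49 with an MRPL symbol (large subunit) and 29 with an MRPS symbol (mostly small subunit). RNA was sequenced from HepG2, a human liver cancer cell line, in experiments that were normalized separately. In the INO80 experiment, cells received a non-targeting control siRNA (NTG), siINO80#1 or siINO80#2, with 3 libraries for each. In the drug experiment, cells were given DMSO or EPZ-6438, which blocks EZH2, the enzyme that methylates histone H3 at K27, and were then transfected with NTG or with siMCRS1. That experiment had 2 libraries for DMSO NTG, 3 for DMSO siMCRS1, 3 for EPZ-6438 NTG and 2 for EPZ-6438 siMCRS1. All cells received siRNA at 50 nM and were harvested 72 h after transfection, and EPZ-6438 was used at 1 µM from 3 days before transfection. Each INO80 siRNA was a separate reagent, whereas the labels name a single siRNA against MCRS1, and all libraries came from the same cell line.

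Mitochondria keep their own ribosome, which translates the few mRNAs encoded by mitochondrial DNA, all of them for membrane proteins of the respiratory chain and ATP synthase. Its rRNAs come from mitochondrial DNA, but all of its proteins are encoded in the nucleus, made in the cytosol and imported. Some of these proteins descend from bacterial ribosomal proteins and others are found only in mitochondria. INO80 is the ATPase of the INO80 chromatin remodelling complex, MCRS1 is a subunit of that complex that also belongs to others, and the DNA-binding factor YY1 is a further subunit in human cells.

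Promoters were read first, since they are a property of the genes that the rule did not use. RefSeq held promoter windows (GRCh38.p14, 250 bases before to 50 after each start) for 69 of the 78 genes. The word AAGATGGCG, which holds the YY1 core AAGATGG, was found on either strand in 13 of 69 members (18.8%), against 4.59% of 10251 tested genes and 2.14% of 27305 genes with a promoter entry. The core AAGATGG itself, which every longer match also contains, was present in 24 members (34.8%), against 9.27% of tested genes. These are matches of letters, not measured binding sites. Both words contain ATG, and whether matches after a start are translation start codons was not checked. The 30-base windows below show the longer word in capitals, on the strand that carries it, for members whose values are described later.

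MRPL46: ggagaacgaAAGATGGCGgcgcccgtaagg
MRPL38: gccggagggAAGATGGCGgcgccctggtgg
MRPS18A: aggtttttgAAGATGGCGgccctcaaggct
MRPS18B: gcgtacgtcAAGATGGCGgcgtctgtatta
MRPS10: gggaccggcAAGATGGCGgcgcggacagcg
MRPL22: gtagcgggagggcgaAAGATGGCGgcggca
MRPL32: gctcttcgggtaAAGATGGCGgagcgcggg

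For MRPL46 the window was chr15:88467360-88467389 on the minus strand, and its word began 8 bases after the start. The MRPL38 window was chr17:75904858-75904887 (minus strand), with the word 6 bases after the start. In MRPS18A (chr6:43687762-43687791, minus strand) and MRPS10 (chr6:42217832-42217861, minus strand) it began 9 bases after the start. The word of MRPS18B (chr6:30617854-30617883, plus strand) began 23 bases after the start and that of MRPL22 (chr5:154941093-154941122, plus strand) 35 bases after it. MRPL32 differed from these, since its word lay 223 bases upstream of the start and on the strand opposite to the gene (window chr7:42932144-42932173, gene on the plus strand). A neighbour, PSMA2, starts on that opposite strand 202 bases upstream of MRPL32. The word thus lies just after the start of PSMA2 and on its strand, as in the other genes shown.

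The shares of other words were closer to those of tested genes, apart from the ETS and TATA words. The ETS word CCGGAAGT, recognised by GABPA and its relatives, was in 12 members (17.4%) and in 9.63% of tested genes. The NRF1 word GCATGCGC was in 6 members (8.70%) and in 6.32% of tested genes, and the E-box CACGTG was in 9 members (13.0%) and in 12.3% of tested genes. TATAAA was in 3 members (4.35%) and in 8.67% of tested genes. No test of these shares was run.

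**Figure D1:**
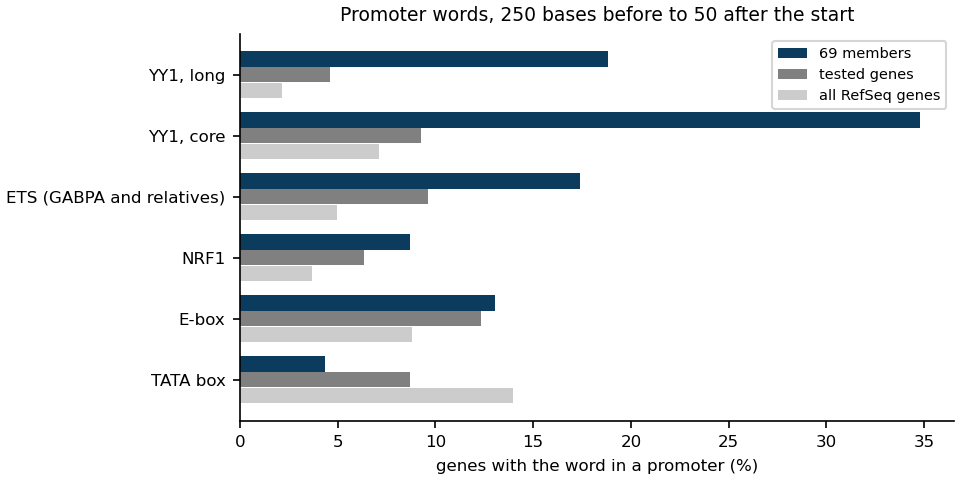
Share of genes (%, horizontal axis) with each word on either strand of a RefSeq promoter window, for the 69 members with an entry, for tested genes and for all RefSeq genes with an entry. The longer YY1 word was in 18.8% of members and 4.59% of tested genes, whereas the E-box shares were 13.0% and 12.3%.

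The targeted genes were lower where the labels say so. INO80 had 1278, 1338 and 1175 normalized counts with NTG, 576, 639 and 609 with siINO80#1, and 439.8, 456 and 483 with siINO80#2, that is 48.1% and 36.4% of the NTG mean. With siMCRS1, MCRS1 stood at 7.99% (DMSO) and 7.93% (EPZ-6438) of the NTG mean. INO80 was also lower with siMCRS1, at 83.0% of the NTG mean in DMSO and 78.3% in EPZ-6438. INO80 libraries held 17093574 to 25369547 reads, and those of the drug experiment held 26038505 to 47397233. All 8 HepG2 markers, ALB and APOA1 among them, were above 0 in every group. The T cell gene CD3E was at 0 in every library of the INO80 experiment, whereas LYZ, listed as a blood marker, made up nearly all of the summed level of the markers of other cells. The 8 HepG2 markers summed to 710192 to 874029 with NTG, 814030 to 1005138 with siINO80#1 and 572346 to 786434 with siINO80#2, and the 8 markers of other cells to 36338 to 40319, 39029 to 44939 and 48428 to 56113. HNF4A fell with both INO80 siRNAs (log2 -0.45 and -1.02) and with siMCRS1 (-0.55 in either medium, limma adjusted p = 0.016 and 0.015). With siINO80#2, 5 of 8 HepG2 markers fell, with and without its library C (28.4% of all tested genes fell with all libraries). HNF4A was the only marker of the 8 that limma called lower with siINO80#1 or with siMCRS1 in either medium. ALB rose with siMCRS1 in EPZ-6438. The median log2 fold change of the 8 was -0.13 with siINO80#1 and -0.58 with siINO80#2. With siMCRS1 it was 0.08 in DMSO and -0.002 in EPZ-6438. Of the markers of other cells, 5 passed the filter in the INO80 experiment, of which 1 (PDGFRB) rose with siINO80#1 (log2 1.00), while 3 rose and 1 (COL1A1) fell with siINO80#2. Without library C of siINO80#2, 3 rose and 0 fell, so the fall of COL1A1 was not called then. COL1A1 was the 1 of 6 tested that rose with siMCRS1 (log2 1.25 in DMSO, 2.91 with EPZ-6438 present). In the drug experiment the HepG2 sum was 936278 to 1072895 in DMSO NTG, 999061 to 1208773 in DMSO siMCRS1, 1028010 to 1138044 in EPZ-6438 NTG and 1169518 to 1294913 in EPZ-6438 siMCRS1, and the sums of the other markers were 52158 to 68942, 38122 to 60248, 46591 to 63347 and 43868 to 57475. Their part in the results was not tested. Library C of siINO80#2 stood apart: mitochondrially encoded genes took 17.7% of its reads, against 7.93% to 9.21% in the other 8 libraries. Counts, shares and several values of siINO80#2 are therefore also given without it.

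All 78 members passed the filter of a mean of at least 10 normalized counts in both experiments. With siINO80#1, 42 of 78 members fell (53.8%, where 20.8% of 14034 tested genes fell) and 3 rose (3.85%, against 20.7%). With siINO80#2, 52 fell (66.7%, against 28.4% of tested genes) and 3 rose (against 26.6%). Calls are from limma with Benjamini-Hochberg adjustment over all tested genes at 0.05. The median log2 fold change of the members was -0.33 with siINO80#1 and -0.47 with siINO80#2, where the median of all tested genes was 0.00 in both, and 68 and 69 of the 78 estimates were below 0. The changes were moderate, since the estimates ran from -1.05 to 0.80 with siINO80#1 and from -1.41 to 1.74 with siINO80#2. Both comparisons use the same 3 NTG libraries, so one does not replicate the other. Without library C of siINO80#2, 50 members fell and 4 rose and the median was -0.36. Of these 50, 49 were among the 52. The share of all tested genes called without library C is not given here. Whether replicate libraries came from separate cultures is not stated, so p-values measure the spread between these libraries only. In such bulk RNA, fewer cells of a kind and less RNA per cell cannot be told apart.

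**Figure D2:**
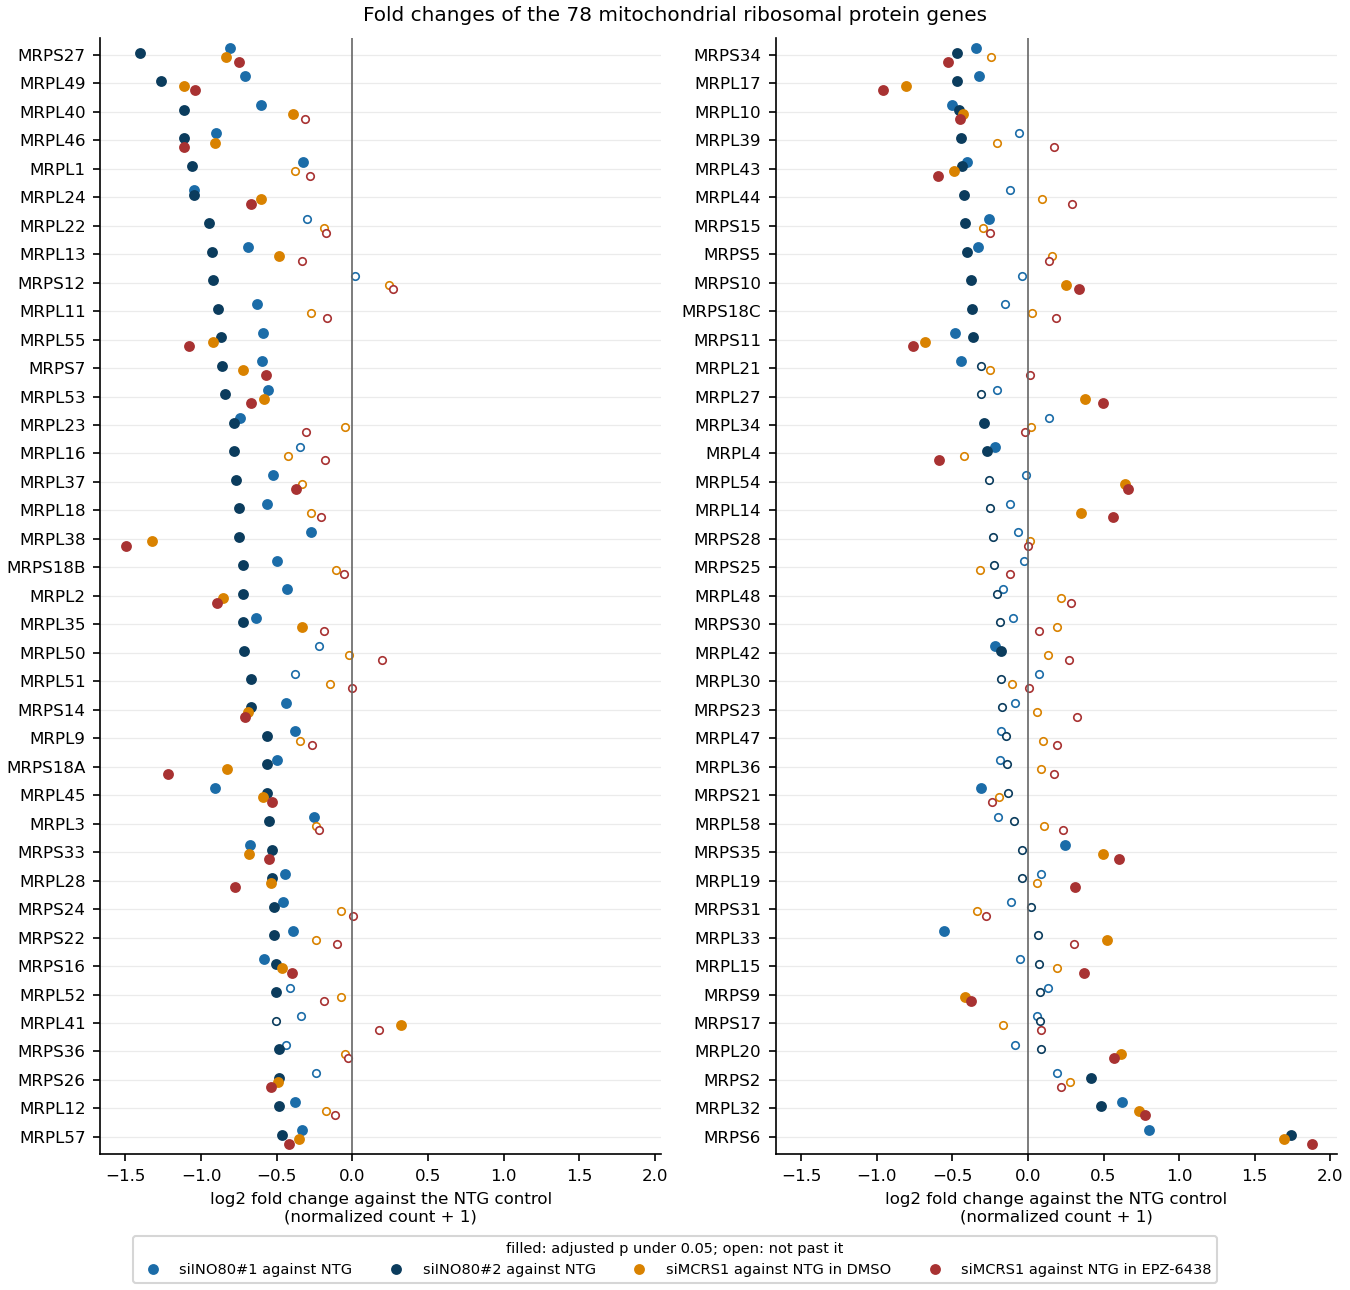
Log2 fold changes against NTG (horizontal axis) of each of the 78 members in the 4 siRNA comparisons, ordered by the value with siINO80#2; filled points passed a limma adjusted p of 0.05 and open points did not. Most points of both INO80 siRNAs lie left of 0, with MRPS6 and MRPL32 at the other end, and the siMCRS1 points spread to both sides.

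The lower level was also seen in the share of all reads. The 78 genes together took 0.399%, 0.405% and 0.397% of reads with NTG, 0.306%, 0.313% and 0.292% with siINO80#1, and 0.297%, 0.303% and 0.228% with siINO80#2. Every knockdown library was below every NTG library, and the lowest was library C of siINO80#2, the one with the high mitochondrial share. With mitochondrially encoded genes left out of the total, the NTG mean was 0.436% ± 0.00487 (SD, n = 3). The siINO80#1 mean was then 0.331% ± 0.0113 (SD, n = 3). For siINO80#2 it was 0.311% ± 0.0294 (SD, n = 3), and 0.328% ± 0.00135 (SD, n = 2) over libraries A and B alone.

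**Figure D3:**
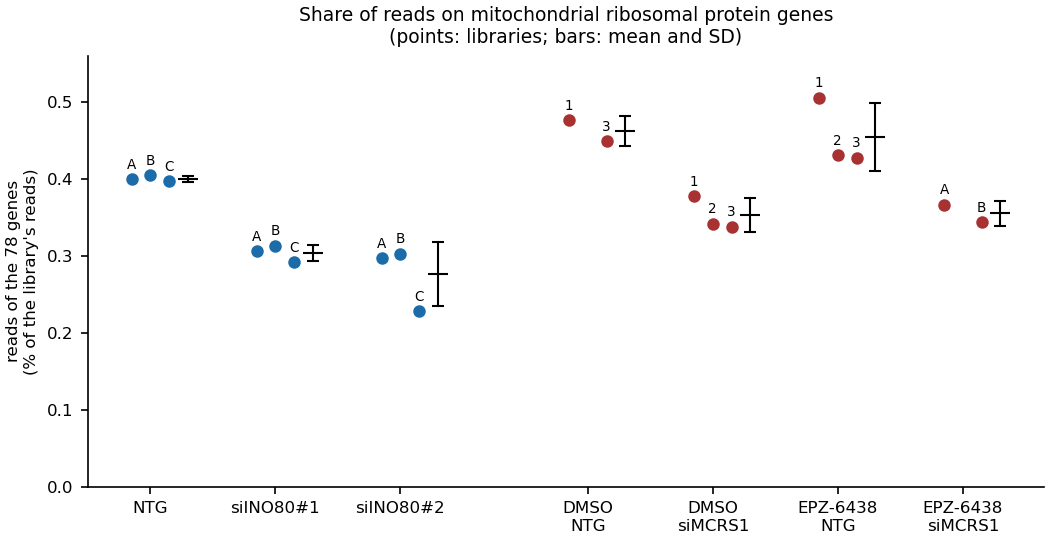
Share of each library's reads (%, vertical axis, from 0) that fell on the 78 members; points are libraries with their letter or number, and bars give the group mean and SD. The siINO80 libraries sit between 0.228% and 0.313%, below the NTG libraries at 0.397% to 0.405%, and the siMCRS1 libraries between 0.338% and 0.378%.

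With siINO80#1 the largest falls among the members were those of MRPL24 and MRPL45, proteins of the large subunit at the exit of the peptide tunnel. MRPL24 had 548, 522 and 523 normalized counts with NTG, 252, 273 and 245 with siINO80#1, and 279, 250.4 and 242 with siINO80#2. The groups did not overlap, and the log2 fold change was -1.05 ± 0.09 (SE) with each siRNA (limma adjusted p = 1.2e-05 and 5.8e-06). MRPL45, which sits where the ribosome meets the inner membrane, had 2485, 2498 and 2429.9 with NTG against 1434, 1270.1 and 1249 with siINO80#1. It fell by 0.91 ± 0.07 (SE) on the log2 scale with siINO80#1 and by 0.56 ± 0.07 with siINO80#2, where it had 1750.0, 1583 and 1689. MRPL45 was thus higher with siINO80#2 than with siINO80#1 (log2 difference 0.35 ± 0.07, SE, limma adjusted p = 0.0075). MRPL23, another exit protein, fell (log2 -0.74 and -0.78). MRPL47, next to it, did not pass the test with either siRNA (-0.18 ± 0.13 and -0.14 ± 0.13, SE). MRPL22 had 658, 622 and 641 with NTG, 516, 534 and 511 with siINO80#1 and 353, 384 and 269 with siINO80#2. Only the change with siINO80#2 passed (-0.95 ± 0.12, SE, limma adjusted p = 6.5e-05), and the siRNAs themselves differed by -0.65 (limma adjusted p = 0.0039).

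The stalk of the large subunit recruits translation factors to the ribosome. Its base protein MRPL11 had 771, 780.2 and 787 normalized counts with NTG, 513, 514 and 482 with siINO80#1, and 453, 482 and 339 with siINO80#2 (log2 fold changes -0.63 and -0.89, limma adjusted p = 0.0016 and 9.4e-05). Without library C the value with siINO80#2 was -0.74. MRPL10, which links the base to the stalk, fell (log2 -0.50 and -0.46). MRPL12, the stalk protein itself, had 1574, 1592 and 1593 with NTG, 1165, 1269 and 1223 with siINO80#1, and 1252, 1359 and 861 with siINO80#2. No knockdown library of MRPL12 reached an NTG library, but the log2 fold change of -0.38 with siINO80#1 was close to the threshold (limma adjusted p = 0.048), and it missed it each time 1 library of that comparison was left out (limma adjusted p = 0.080 to 0.13). With siINO80#2 it was -0.48, and -0.28 without library C, still past the threshold.

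The 4 largest falls with siINO80#2 were those of MRPS27, MRPL49, MRPL40 and MRPL46, none of which has a bacterial counterpart. MRPL46, which has a Nudix-like fold, had 1077, 1104 and 1179.9 normalized counts with NTG, 606, 639 and 558 with siINO80#1 and 559.8, 538 and 462 with siINO80#2. Its levels were 53.7% and 46.4% of the NTG mean (log2 -0.90 ± 0.09 and -1.11 ± 0.09, SE; limma adjusted p = 3.4e-05 and 4.1e-06). MRPL49 had 1232, 1198 and 1246 with NTG, 773, 739 and 735 with siINO80#1, and 541, 554 and 442 with siINO80#2. All 3 groups were apart from each other, and the siRNAs differed by -0.55 ± 0.09 (SE, limma adjusted p = 0.0021). MRPL40 was at 65.6% and 46.4% of the NTG mean, with the same order of groups (674, 607 and 604; 429, 418 and 388; 328, 301 and 246). MRPL49 shares exon sequence with SYVN1 on the opposite strand, and the sources used here do not say whether strand entered the counting.

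MRPS27 of the small subunit had the largest of these falls. MRPS27, a pentatricopeptide repeat protein that binds RNA, had 2430.3, 2399 and 2329 normalized counts with NTG, 1453, 1312 and 1316 with siINO80#1 and 976, 966 and 773 with siINO80#2. These are 57.0% and 37.9% of the NTG mean (log2 -0.81 ± 0.09 and -1.41 ± 0.09, SE; limma adjusted p = 7.3e-05 and 1e-06), and the siRNAs differed by -0.59 (limma adjusted p = 0.0018). MRPS27 overlaps an exon of PTCD2 on the opposite strand. MRPS7, which organises the head of the small subunit, had 1689.7, 1852 and 1702 with NTG, 1213, 1184 and 1069 with siINO80#1 and 1093, 1010.1 and 798 with siINO80#2 (log2 -0.60 and -0.86). MRPS12, at the decoding centre, separated the siRNAs. It had 377, 463 and 415 with NTG and 404, 477 and 390.0 with siINO80#1, so these groups overlapped (log2 0.02, 95% interval -0.50 to 0.53). With siINO80#2 it had 280.5, 274 and 137, and fell by 0.92 on the log2 scale (limma adjusted p = 0.0063), or by 0.59 without library C, which was still past the threshold. The difference between the siRNAs was -0.94 (limma adjusted p = 0.016), and did not pass without library B of siINO80#1 (limma adjusted p = 0.061).

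The 3 human relatives of bacterial S18 behaved unequally. MRPS18A, which sits in the large subunit in spite of its name, had 729, 763 and 862 normalized counts with NTG, 552, 560.2 and 548 with siINO80#1 and 527, 506 and 556 with siINO80#2 (log2 -0.50 and -0.56). MRPS18B had 1763, 1659 and 1659 with NTG, 1232, 1151 and 1216 with siINO80#1 and 1131, 1099.7 and 864 with siINO80#2 (log2 -0.50 and -0.72). MRPS18C, the counterpart that occupies the bacterial position, had 587, 655 and 533 with NTG and 531, 571 and 489.7 with siINO80#1, with overlapping groups (log2 -0.15, 95% interval -0.40 to 0.09). It fell by 0.37 with siINO80#2 (limma adjusted p = 0.015), a call that did not hold without library B of NTG (limma adjusted p = 0.067). The differences among these 3 genes were not tested.

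MRPL58, a peptidyl-tRNA hydrolase that was built into the large subunit, did not pass with either siRNA (log2 -0.20 and -0.10, limma adjusted p = 0.099 and 0.39). MRPL57 fell (log2 -0.33 and -0.47), from 591, 594 and 586 normalized counts with NTG to 461, 494 and 454 with siINO80#1 and 449, 473 and 367 with siINO80#2. The call with siINO80#1 was lost in 5 of the 6 fits that left out 1 of its libraries, all but that without library B of siINO80#1 (limma adjusted p = 0.053 to 0.072).

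Few members rose. MRPL32, a protein that is trimmed by the m-AAA protease before it joins the large subunit, had 439, 432 and 458 normalized counts with NTG, 663, 721 and 665 with siINO80#1 and 657, 605 and 602 with siINO80#2. All 6 knockdown libraries were above the NTG libraries, and the level was 1.54-fold and 1.40-fold that of NTG (log2 0.62 ± 0.08 and 0.49 ± 0.08, SE; limma adjusted p = 1.1e-04 and 3.0e-04). MRPS35, a small-subunit protein found in mitochondria, rose with siINO80#1 (1391, 1395 and 1319 to 1657, 1615 and 1581; log2 0.24) and not with siINO80#2 (log2 -0.04), and the siRNAs differed by -0.28 (limma adjusted p = 0.0099). The rise was not called after rescaling to equal totals (log2 0.16, limma adjusted p = 0.16). MRPS2 rose with siINO80#2 alone in the sense of the test (log2 0.42, against 0.19 with siINO80#1), but the difference between the siRNAs did not pass (0.23, limma adjusted p = 0.13).

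MRPS6 had the largest rise, and its value is uncertain. It had 359, 387 and 367 normalized counts with NTG, 620.0, 624 and 696 with siINO80#1 and 1292, 1175 and 1257 with siINO80#2, which is 1.74-fold and 3.35-fold (log2 0.80 ± 0.08 and 1.74 ± 0.08, SE; limma adjusted p = 2.6e-05 and 1.7e-07). SLC5A3, the gene of a sodium-dependent inositol transporter, lies on the same strand and shares exon sequence with MRPS6. SLC5A3 had 1926, 1796 and 1908 with NTG, 2975, 2483 and 3205 with siINO80#1, and 12257, 11148 and 11740.1 with siINO80#2, so it rose 1.54-fold and 6.24-fold. Reads of these genes were not separated here.

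**Figure D4:**
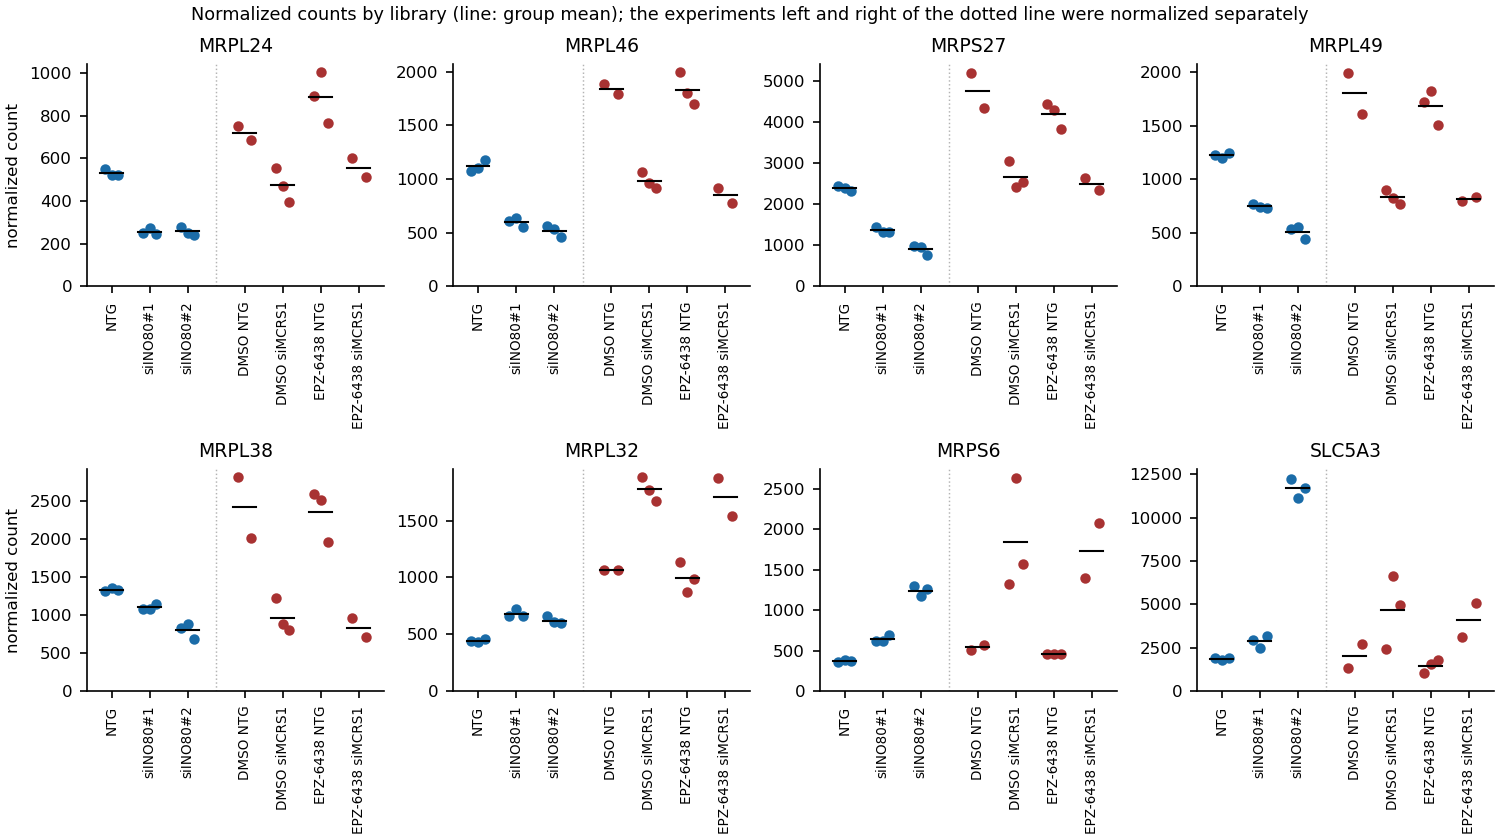
Normalized counts (vertical axes, from 0) of 7 members and of SLC5A3 in each library, by group, with a line at each group mean; the experiments on either side of the dotted line were normalized separately. MRPL24, MRPL46, MRPS27 and MRPL49 are lower in every knockdown library than in the NTG libraries beside them, and MRPL32 and MRPS6 are higher.

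Set against each other directly, the INO80 siRNAs differed in 18 members. With siINO80#2, 15 members were lower than with siINO80#1 (19.2%, where 12.6% of tested genes were lower) and 3 were higher (against 9.48%). The median was -0.13, beside -0.01 for all tested genes. Library C of siINO80#2 is included in these values. Without it, the members' median for siINO80#2 against NTG was -0.36, beside -0.33 for siINO80#1. Their mean share of reads outside mitochondrially encoded genes was then 0.328%, beside 0.331% for siINO80#1. MRPL1, a protein of the mobile arm beside the tRNA exit site, gave a large difference (562, 479.9 and 479 against 338, 307 and 269; log2 -0.73 ± 0.11, SE). MRPL33 went the other way, with 799.7, 765 and 765 with NTG, 569.9, 502 and 516 with siINO80#1 and 936, 923 and 624 with siINO80#2 (log2 0.62 between the siRNAs, limma adjusted p = 0.0097). Its library C lay well below the other 2 of its group, and MRPL33 shares exon sequence with BABAM2 on the same strand.

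The fall reached both classes of symbol. With siINO80#1, 28 of 49 MRPL and 14 of 29 MRPS genes fell (medians -0.34 and -0.26). With siINO80#2 these were 34 of 49 and 18 of 29 (medians -0.50 and -0.40). Members with a bacterial homolog gave 27 and 30 falls of 46, and members without one 15 and 22 of 32. Of the 13 members with the longer YY1 word, 6 fell with siINO80#1 and 10 with siINO80#2 (medians -0.27 and -0.52), beside 30 and 36 of the 56 members without it (medians -0.33 and -0.45). With siMCRS1, 3 of 13 fell in each medium (medians -0.07 and 0.01), beside 18 and 20 of 56 (medians -0.26 and -0.19). Over all tested genes with a promoter entry, 42.7% of 471 with the word and 29.2% of 9780 without it fell with siINO80#2, and 24.2% and 21.6% with siINO80#1. With siMCRS1 the order was the other way, with 23.6% of 470 and 25.7% of 9750 in DMSO and 26.0% and 27.7% in EPZ-6438. No test of these splits was run.

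Many members overlap other genes, and 37 of 78 shared no exon sequence with another gene on either strand. Of those 37, 15 fell and 2 rose with siINO80#1 and 22 fell and 1 rose with siINO80#2, with medians of -0.30 and -0.47. With siMCRS1 these were 10 and 7 in DMSO (median -0.19) and 8 and 7 in EPZ-6438 (median -0.05). In the same order, 20.8%, 28.4%, 24.6% and 26.9% of all tested genes fell and 20.7%, 26.6%, 23.1% and 26.8% rose. Falls of these 37 members with siMCRS1 were thus near the share of all tested genes. MRPS31 and MRPS17 have expressed pseudogenes (MRPS31P5 had a mean 58.4% as high as that of MRPS31 in the INO80 experiment), so these 2 members are uncertain, and neither was called in any siRNA comparison with NTG.

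In the drug experiment, members both fell and rose with siMCRS1. In DMSO, 25 of 78 members fell (32.1%, where 24.6% of 14312 tested genes fell) and 10 rose (12.8%, against 23.1%), with a median of -0.22. In EPZ-6438, 25 fell (against 26.9% of tested genes) and 10 rose (against 26.8%), with a median of -0.17. The share that fell was thus near that of all tested genes, and the share that rose was below it. Counts here depended on scaling: with libraries rescaled to equal totals, 47 members fell and 4 rose in DMSO and 40 fell and 5 rose in EPZ-6438, while the share of all tested genes called lower went to 35.6% and 37.2% and their median to -0.23 in both. The 78 genes took 0.476% and 0.449% of reads in DMSO NTG and 0.378%, 0.342% and 0.338% in DMSO siMCRS1, with no overlap, and 0.506%, 0.431% and 0.428% in EPZ-6438 NTG against 0.367% and 0.344% in EPZ-6438 siMCRS1. No test of the shares was run. Leaving out library 1 of DMSO NTG, or library B of EPZ-6438 siMCRS1, left 1 library in that group and gave fewer called members in each direction. Shares of all tested genes called in those fits are not given here, so a drop particular to the members was not shown.

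**Figure D5:**
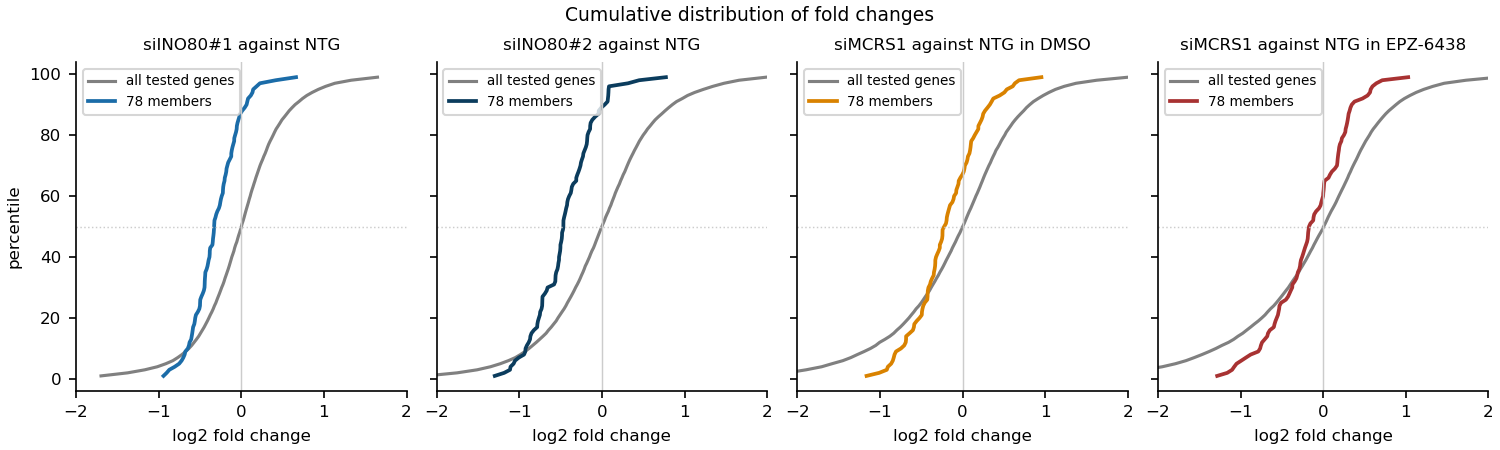
Cumulative distribution of log2 fold changes (horizontal axis) by percentile (vertical axis), for the 78 members (coloured) and all tested genes (grey), in each siRNA comparison with NTG. The member curve lies left of the grey curve at the median in every panel (-0.33, -0.47, -0.22 and -0.17) and right of it at the lowest percentiles, since few members had very large falls.

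The 4 largest falls with siMCRS1 in DMSO were those of MRPL38, MRPL49, MRPL55 and MRPL46, large-subunit proteins with no bacterial counterpart. MRPL38, which has a fold like that of phosphatidylethanolamine-binding proteins, had 2819.6 and 2020.3 normalized counts with DMSO NTG and 1224, 883 and 799 with DMSO siMCRS1. In EPZ-6438 it had 2596, 2521 and 1963 with NTG and 965 and 711 with siMCRS1. It was at 40.0% and 35.5% of the NTG mean (log2 -1.32 ± 0.22, SE, in DMSO; limma adjusted p = 6.4e-04 and 2.2e-04). MRPL49 had 1999 and 1615 with DMSO NTG, 897, 829 and 769 with DMSO siMCRS1, 1728, 1824 and 1505 with EPZ-6438 NTG, and 794 and 836 with EPZ-6438 siMCRS1 (log2 -1.11 and -1.04). MRPL46 was at 53.3% and 46.3% of NTG, and MRPL55 at 52.6% and 47.3%. MRPS18A had 1264 and 1015 with DMSO NTG and 668, 653 and 596 with DMSO siMCRS1. It had 1147, 1531 and 1178 with EPZ-6438 NTG and 577 and 519 with EPZ-6438 siMCRS1 (log2 -0.83 and -1.22), while MRPS18B (-0.11 and -0.05) and MRPS18C (0.03 and 0.18) did not pass. The interaction of siMCRS1 with EPZ-6438 for MRPS18A was -0.39 (95% interval -0.86 to 0.08) and did not pass. MRPL46 and MRPL38 also share exon sequence on the same strand with gene models that have no symbol.

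Other roles changed less. The stalk proteins MRPL11 and MRPL12 did not pass with siMCRS1 (log2 -0.28 and -0.18 in DMSO, 95% intervals -0.56 to 0.01 and -0.49 to 0.14), although both passed in DMSO after rescaling to equal totals (-0.51 and -0.41). MRPS12 did not pass either, at 0.24 in DMSO (95% interval -0.03 to 0.51) and 0.27 in EPZ-6438 (95% interval -0.01 to 0.54). MRPL58 was at 0.10 and 0.23 (95% intervals -0.26 to 0.46 and -0.13 to 0.59). MRPS7 (log2 -0.72 and -0.57), MRPS27 (-0.84 and -0.75), MRPL24 (-0.61 and -0.67) and MRPL57 (-0.35 and -0.42) fell in both media.

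Rises with siMCRS1 again included MRPL32, with 1069 and 1062 normalized counts in DMSO NTG, 1882, 1769 and 1673 in DMSO siMCRS1, 1139, 872 and 986 in EPZ-6438 NTG and 1873 and 1545 in EPZ-6438 siMCRS1. The rise was 1.67-fold and 1.71-fold (log2 0.73 ± 0.13 and 0.78 ± 0.13, SE; limma adjusted p = 0.0011 and 5.9e-04). MRPL54 had 207 and 221 with DMSO NTG and 329, 356 and 319 with DMSO siMCRS1 (log2 0.64, limma adjusted p = 0.0025). MRPL20, a large-subunit protein with a bacterial homolog, had 1317 and 1135 with DMSO NTG and 1954, 1922 and 1747 with DMSO siMCRS1 (log2 0.61). MRPS35 rose by 0.50 and 0.60 on the log2 scale. MRPS6 had 512 and 575 with DMSO NTG, 1321, 2629 and 1564 with DMSO siMCRS1, 464, 462 and 465 with EPZ-6438 NTG, and 1398 and 2075 with EPZ-6438 siMCRS1 (3.38-fold and 3.75-fold). SLC5A3, with which it shares exon sequence, was 2.32-fold and 2.80-fold.

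Neither siMCRS1 comparison shares a library with the other or with the INO80 experiment, so calls can be set side by side. Of the 25 members lower in DMSO and the 25 lower in EPZ-6438, 22 were the same (88% of each), where all tested genes called lower gave 89.5% and 81.9%. Of the 52 members lower with siINO80#2, 24 were among the 25 lower with siMCRS1 in DMSO, which is 46.2% of the first list and 96% of the second. For all tested genes these shares were 55.1% and 62.4%. With siINO80#1, 23 of its 42 were among the 25 (54.8% and 92%), where all tested genes gave 63.3% and 52.5%. The bases differ, since 66.7% of members and 28.4% of tested genes fell with siINO80#2, and 53.8% and 20.8% with siINO80#1. Of the 10 members higher with siMCRS1 in DMSO, 2 were higher with siINO80#2 (20%, all tested genes 63.5%). With siINO80#1, 3 were higher (30%, all tested genes 57.0%), where 3 members rose with each INO80 siRNA. No test of these overlaps was run. MRPS10 was lower with siINO80#2 (1144, 1287 and 1093 to 976, 862 and 874) and higher with siMCRS1 in DMSO (3082 and 2974 to 3550.0, 3641 and 3611; log2 0.25, limma adjusted p = 0.044).

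EPZ-6438 itself moved no member past the threshold. In NTG cells 0 of 78 were called, where 0.384% of all tested genes were, and in siMCRS1 cells 0 of 78, where 0.0908% were. The interaction of siMCRS1 with EPZ-6438 called 0 members and 0% of tested genes. At an unadjusted limma p under 0.05 there were 6, 1 and 0 members, and edgeR and DESeq2 on the recovered reads called 0 in each. The 95% intervals of the 78 log2 differences lay within -0.78 to 0.66 in NTG cells, -0.68 to 0.60 in siMCRS1 cells and -0.86 to 0.97 for the interaction. The estimates themselves ran from -0.42 to 0.30 in NTG cells.

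Proteins of the mitochondrial ribosome with other symbols gave mixed values. Of 5 measured, 1 fell and 1 rose with siINO80#1, and 2 fell and 1 rose with siINO80#2. DAP3, a GTP-binding protein of the small subunit, rose in all 4 comparisons with NTG, from 1073, 1205 and 1141 normalized counts to 1672, 1656 and 1575 with siINO80#1 and 1956, 1889 and 1763 with siINO80#2. In DMSO it went from 1967 and 1909.6 to 3939.5, 4079.7 and 3842 with siMCRS1 (2.04-fold, limma adjusted p = 2.2e-05). CHCHD1, another small-subunit protein, fell (log2 -0.32 and -0.46) with the INO80 siRNAs.

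Genes that build the ribosome both fell and rose. Of 27 assembly genes, 11 fell and 3 rose with siINO80#1, 17 and 3 with siINO80#2, and 14 and 4 with siMCRS1 in each medium (medians -0.24, -0.33, -0.32 and -0.32). In the same order, 20.8%, 28.4%, 24.6% and 26.9% of all tested genes fell and 20.7%, 26.6%, 23.1% and 26.8% rose. The lists below have the same background. MRM1, a methyltransferase of the large-subunit rRNA, had 168, 146 and 159 normalized counts with NTG and 89.7, 74.3 and 66.1 with siINO80#2. With siMCRS1 it fell much further, from 395 and 327 to 52.3, 34.1 and 35.8 in DMSO (log2 -3.14 ± 0.25, SE, limma adjusted p = 1.7e-05). MRM2, a second methyltransferase of that rRNA, fell (log2 -0.76 and -0.84) with the INO80 siRNAs. TFB1M, which dimethylates the small-subunit rRNA, rose by 0.84 and 0.85 on the log2 scale with the first and second INO80 siRNA and by 0.84 and 1.13 with siMCRS1 (DMSO, then EPZ-6438). In that order MTERF3, which is needed for large-subunit assembly, rose by 0.82, 0.99, 0.68 and 0.87.

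Factors that act with the finished ribosome also changed in both directions. Of 17 translation factors, 8 fell with each INO80 siRNA while 1 and 3 rose, and with siMCRS1 4 and 7 fell and 1 and 3 rose. The 4 of 17 in DMSO are close to the share of all tested genes. TACO1, the activator of cytochrome c oxidase subunit I translation, fell in these 4 comparisons (in the same order log2 -0.85, -1.35, -1.32 and -1.35). MTRF1, a release factor, fell (log2 -0.82, -0.87, -1.27 and -1.31). GUF1, the mitochondrial homolog of bacterial LepA, rose by 0.47 and 0.58 with the INO80 siRNAs. Of 20 mitochondrial aminoacyl-tRNA synthetase genes, 10 fell and 1 rose with each INO80 siRNA, and 9 and 10 fell while 2 and 5 rose with siMCRS1. LARS2, which charges leucine tRNA, fell (log2 -0.56 and -1.47) with the INO80 siRNAs, and CARS2, which charges cysteine tRNA, rose by 0.52 and 0.74.

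The mRNAs that this ribosome translates were also measured. Of 13 mitochondrially encoded mRNAs, limma called 0 with siINO80#1 (0 at an unadjusted p under 0.05, 0 by edgeR and 0 by DESeq2, median log2 fold change 0.09). With siINO80#2 it called 0 as well (3 at an unadjusted p under 0.05, 4 by edgeR and 1 by DESeq2, median 0.53), where library C had the highest share of mitochondrial reads. Without that library the median was 0.13 and MT-ND1, which encodes a subunit of respiratory complex I, rose (log2 0.30). With siMCRS1 in DMSO 1 rose. TFAM, which packages mitochondrial DNA and acts in its transcription, had 1672, 1644 and 1482 normalized counts with NTG. It had 818, 738 and 631 with siINO80#1 and 1544, 1519 and 1180.0 with siINO80#2. This was a fall of 1.14 on the log2 scale with siINO80#1 (limma adjusted p = 4.6e-05). The fall was not shared by siINO80#2 (-0.19, and 0.95 between the siRNAs, limma adjusted p = 6.2e-04). Among 9 nuclear regulators, 3 rose and 1 fell with each INO80 siRNA, and 6 rose and 2 fell with siMCRS1 in each medium. Of all tested genes, 20.7% and 26.6% rose with the INO80 siRNAs, and 23.1% and 26.8% with siMCRS1 (DMSO, then EPZ-6438). MYC rose by 0.43, 0.76, 0.82 and 0.71, and PPARGC1A, a coactivator of mitochondrial biogenesis, fell (log2 -0.47, -1.26, -0.92 and -0.59), with overlapping groups for siINO80#1 and for siMCRS1 in EPZ-6438. YY1 mRNA did not pass with the INO80 siRNAs (0.16 and 0.00) and rose with siMCRS1 by 0.40 in DMSO and 0.36 in EPZ-6438.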

How the data were processed

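RNA was sequenced from HepG2 libraries prepared with a stranded mRNA kit. Per the labels, the authors used kallisto, DESeq2 and genome build GRCh38 (versions, annotation and use of strand are not given in the sources used here). The deposited values are normalized counts per gene, that is signal in which the count of each library is divided by 1 size factor, in a separate table for each experiment. Whole reads were recovered from the steps between values (100% of values within 0.01 of a whole number), 17093574 to 25369547 per INO80 library and 26038505 to 47397233 per library of the drug experiment. Whether these were counted or rounded estimates was not told apart, and depth covers counting error only.

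Values were tested as log2(normalized count + 1), so fold changes of low genes are understated. limma 3.58.1 (R 4.3.3, with a trend) was fitted to all groups of a table, leaving out genes whose mean was under 10, and p-values were adjusted over all remaining genes by Benjamini-Hochberg (0.05). Members were counted beside all tested genes, and no set test was run. Alternatives were pseudocounts of 0.1 and 5, other filters, rescaling to equal totals, quantile normalization, fits of only the groups compared or without a trend, a replicate block (deviations of the 3 same-letter pairs of NTG and siINO80#1 correlated at 0.14 to 0.26, a pairing seen in the data only), each library left out, and edgeR 4.0.16 and DESeq2 1.42.0 on recovered reads. On data simulated for siINO80#1 against NTG (14043 genes, 198 changed), limma called 93.4% of changed genes. Of its calls there, 5.13% were of genes not changed. No planted change was as small as the members' median with siINO80#1 (log2 -0.33), so detection at that size was not tested. Far fewer genes were changed there than were called in the data (20.7% higher and 20.8% lower), so these shares do not carry over to the data.

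Members and gene lists were chosen with earlier results of these data known. Named members were, in each comparison, up to 4 with the largest rise and 4 with the largest fall among called members with a mean of at least 50 and groups that did not overlap, together with MRPS6, MRPS18A, MRPS18B, MRPS18C, MRPL11, MRPL12, MRPL57, MRPL58, MRPS7 and MRPS12; from the other lists up to 2 in each direction were eligible. Members outside that rule (MRPL10, MRPL14, MRPL23, MRPL27, MRPL47, MRPS10, MRPS11, MRPS17 and MRPS31), as well as LYZ, HNF4A, PDGFRB, COL1A1, MT-ND1, YY1 and the neighbours named in the observations, were chosen after their values were seen. Positions and promoters came from RefSeq (GRCh38.p14), where 77 of 78 members matched by symbol and MRPS36 did not. Its place in the mitochondrial ribosome is therefore the least sure from the sources used here, and it is kept in all counts. Exon overlaps came by name from GENCODE on GRCh37.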

Additional observations from a re-analysis of the deposited data

How the results depend on the processing

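Rescaling to equal totals moved all genes down, with medians of all tested genes of -0.11 for siINO80#2 and -0.23 for siMCRS1 in either medium. The members' medians then were -0.58 for siINO80#2, -0.46 for siMCRS1 in DMSO and -0.41 in EPZ-6438. The rescaled split was 4 higher and 47 lower in DMSO and 5 higher and 40 lower in EPZ-6438, against 10 and 25 in each as reported. For siINO80#1 it was 2 and 41, and for siINO80#2 3 and 54. Leaving out 1 library gave 34 to 38 called members for siINO80#1, 50 to 58 for siINO80#2, 14 to 21 for siINO80#2 against siINO80#1, 21 to 36 for siMCRS1 in DMSO (21 without DMSO NTG 1) and 21 to 41 in EPZ-6438 (21 without EPZ-6438 siMCRS1 B). The median for siINO80#2 then ran from -0.51 to -0.36 (without its library C), that for siMCRS1 in EPZ-6438 from -0.21 to -0.072 (without EPZ-6438 NTG 1), and that for EPZ-6438 in NTG cells from -0.10 (without DMSO NTG 3) to 0.045. In the order of comparisons just given, edgeR called 46, 55, 17, 36 and 34 members and DESeq2 49, 55, 18, 39 and 37. For the fits with 1 library left out, edgeR and DESeq2, shares of all tested genes are not given here. Those counts therefore do not compare the members with other genes. The causes were not tested.

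Estimates near 0 changed sign and did not pass the threshold on either side. MRPS12 with siINO80#1 went to -0.063 rescaled and ran from -0.070 to 0.094 when 1 library was left out. MRPL12 between the INO80 siRNAs ran from -0.23 to 0.098 (without siINO80#2 C). With siMCRS1 in DMSO, MRPS18C went to -0.21 and MRPL58 to -0.13 rescaled. With 1 library left out, MRPS18C ran from -0.045 (without DMSO NTG 1) to 0.10, MRPL58 from -0.041 (without DMSO NTG 3) to 0.25, and MRPS18B from -0.25 to 0.030 (without DMSO NTG 1). In EPZ-6438, MRPS18C went to -0.055 and MRPL58 to -0.010 rescaled, while MRPS18B ran from -0.10 to 0.013 (without EPZ-6438 NTG 1). Beyond the calls described with the genes, MRPL57 lost its call with siMCRS1 in DMSO in 4 fits without 1 library, and MRPS7 and MRPL57 lost theirs in EPZ-6438 without EPZ-6438 siMCRS1 B (limma adjusted p = 0.058 and 0.13).

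A block for replicate letters gave counts of 47, 58 and 20 called members in the INO80 comparisons, against 45, 55 and 18 without it. Shares of all tested genes called with the block are not given here. Deviations of same-letter libraries correlated at 0.10 on average over 9 pairs (-0.08 to 0.26), and those of other pairs at -0.05. All 3 pairs of NTG with siINO80#1 were above 0.1 (0.25, 0.26 and 0.14), whereas not all pairs of siINO80#2 with either group were. The block changed no call of the genes followed by name. No paired analysis was possible because the columns of the drug experiment carry numbers that the labels do not tie to pairs. The restriction to members without exon overlap and the other gene lists and shares without siINO80#2 C were chosen after seeing the data. A count of 3 reads corresponded to 2.13 to 4.30 normalized counts, far below every member, so depth did not limit which members were tested.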

Other observations

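Many of these genes stand head to head with a neighbour. In RefSeq, 26 members had 27 neighbours that start on the other strand within 1000 bases, and 17 of those neighbours were tested genes outside the family. Of the 17, 6 fell with siINO80#1, 8 with siINO80#2, and 11 (DMSO) and 12 (EPZ-6438) with siMCRS1 (35.3%, 47.1%, 64.7% and 70.6%), while 1 and 3 rose with siMCRS1. Of all tested genes 20.8%, 28.4%, 24.6% and 26.9% fell. The neighbours were chosen after the values of the members were seen, and the counts were not tested.

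Some pairs moved alike. MRPL46 and MRPS11, a small-subunit protein, start 320 bases apart, and both fell in all 4 comparisons with NTG (MRPS11 log2 -0.48, -0.36, -0.68 and -0.76). MRPS27 and PTCD2, which starts 133 bases away and overlaps it on the opposite strand, also fell together (PTCD2 log2 -0.60, -0.69, -0.71 and -0.68). Other pairs parted. EME1, a subunit of a DNA structure-specific endonuclease, starts 45 bases from MRPL27 and fell with siMCRS1 in DMSO and EPZ-6438 (log2 -1.33 and -1.06), whereas MRPL27 rose by 0.38 and 0.50. TMEM63B, 240 bases from MRPL14, fell (log2 -1.09 and -1.31) with siMCRS1 whereas MRPL14 rose by 0.35 and 0.56. FAU, a cytosolic ribosomal protein gene 49 bases from MRPL49, rose by 0.35 and 0.50 with siMCRS1 whereas MRPL49 fell (log2 -1.11 and -1.04).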
